A study of Mus musculus with 10 samples.

Results

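Of the 15119 ZFP266 binding regions in the deposited DamID-seq peak list of mouse embryonic fibroblasts (MEFs), 350 lay at promoters. A peak was counted at a promoter when its midpoint fell between 1000 bp upstream and 100 bp downstream of the start of any curated RefSeq transcript (accessions NM for coding and NR for non-coding transcripts) in GRCm38. The 350 peaks made up 2.31% of the list (Wilson 95% interval 2.09 to 2.57%), while the same windows covered 1.19% of the ungapped genome. They lay at 358 genes, which is 1.37% of the 26180 genes with a curated transcript.

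The study asked where ZFP266, a zinc finger protein that restrains reprogramming to pluripotency, sits in the genome of fibroblasts. MEFs of the 129 strain were nucleofected with the plasmid PGK-mO-Dam in 5 samples and with PGK-mO-Dam-Zfp266 in 5 samples, and cells carrying a plasmid were sorted by fluorescence 48 h later. In both plasmids the PGK promoter drove mOrange as the first reading frame, so that Dam or the Dam-Zfp266 fusion was made at a low level by reinitiation. All 10 samples were merged into 1 list by the peak caller, so neither the depth nor the spread between samples is known, and every interval given here covers the spread between peaks or counting error only.

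ZFP266 belongs to the C2H2 zinc finger family, in which arrays of fingers read DNA and a KRAB domain, where present, recruits the corepressor TRIM28. Many members of this family bind transposable elements. B1 elements are short interspersed repeats (SINEs) derived from 7SL RNA and are common in gene-rich parts of the mouse genome, and AP-1 is the FOS and JUN transcription factor family, which holds many fibroblast enhancers open. In DamID, the fused Dam methyltransferase marks the adenine of GATC sequences close to the bound protein, so a peak is a run of whole fragments between GATC sites and not a summit.

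The sequences below show what the B1 SINEs in promoter peaks looked like. They are read from the GRCm38 reference, which is the C57BL/6J strain, while the cells were of the 129 strain. The consensus was assembled from the most frequent words of chromosome 19, is 152 bp long, and was 86.7% identical to 7SL RNA over 60 bp. Each genomic copy is written along the B1 sense strand, with capitals where it equals the consensus, and comes from a named peak with a B1 SINE in the promoter window. Positions are relative to the transcript start, with negative values upstream.

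B1 consensus: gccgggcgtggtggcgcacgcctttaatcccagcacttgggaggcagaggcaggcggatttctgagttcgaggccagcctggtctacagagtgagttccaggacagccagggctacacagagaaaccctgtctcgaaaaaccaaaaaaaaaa
*Rpl24* B1: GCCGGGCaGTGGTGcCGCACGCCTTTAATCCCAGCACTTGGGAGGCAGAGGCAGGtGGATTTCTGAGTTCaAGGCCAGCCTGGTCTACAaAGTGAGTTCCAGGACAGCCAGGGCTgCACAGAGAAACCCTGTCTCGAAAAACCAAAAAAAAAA
*Proca1* B1: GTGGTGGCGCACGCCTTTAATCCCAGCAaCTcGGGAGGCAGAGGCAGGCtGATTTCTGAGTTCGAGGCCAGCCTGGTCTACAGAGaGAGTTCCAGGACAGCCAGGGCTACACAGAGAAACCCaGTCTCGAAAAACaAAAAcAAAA
*Gsr* B1: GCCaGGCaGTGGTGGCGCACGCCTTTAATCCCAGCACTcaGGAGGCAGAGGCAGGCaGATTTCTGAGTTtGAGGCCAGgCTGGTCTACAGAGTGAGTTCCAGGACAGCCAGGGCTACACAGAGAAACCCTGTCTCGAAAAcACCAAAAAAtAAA
*Slc25a38* B1: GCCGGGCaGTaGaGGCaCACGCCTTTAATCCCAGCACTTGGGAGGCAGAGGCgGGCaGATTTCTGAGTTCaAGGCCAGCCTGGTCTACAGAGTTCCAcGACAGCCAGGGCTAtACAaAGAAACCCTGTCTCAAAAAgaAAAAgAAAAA
*Fancc* B1: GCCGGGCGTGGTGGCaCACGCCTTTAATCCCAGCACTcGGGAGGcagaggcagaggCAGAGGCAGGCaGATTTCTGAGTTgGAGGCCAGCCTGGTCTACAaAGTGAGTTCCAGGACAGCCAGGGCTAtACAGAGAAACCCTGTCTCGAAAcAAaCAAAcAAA
*Rpl14-ps1* B1: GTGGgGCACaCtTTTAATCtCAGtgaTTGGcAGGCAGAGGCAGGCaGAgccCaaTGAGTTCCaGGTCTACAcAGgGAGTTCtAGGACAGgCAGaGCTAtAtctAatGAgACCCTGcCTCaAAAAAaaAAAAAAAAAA

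The *Rpl24* copy, at chr16:55965826-55965978 and centred at −373 bp, was the closest of these to the consensus, with 96.1% identity. The *Proca1* copy (chr11:78193962-78194106) was 95.2% identical, the *Gsr* copy (chr8:33652893-33653046) 94.2% and the *Slc25a38* copy (chr9:120109961-120110108) 88.2%. *Fancc*, a gene of the Fanconi anaemia DNA repair pathway, had a copy of 87.0% identity (chr13:63432343-63432504). The copy at *Rpl14-ps1* (chr7:45324805-45324941) was the most diverged (72.6%), and was centred at −85 bp. Of the 181 B1 SINEs in promoter peaks, 89 were on the strand of the gene and 92 on the other.

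AP-1 motifs, searched as exact TGACTCA or TGAGTCA (each the reverse complement of the other), are shown in capitals with 12 bp on either side, along the strand of the gene, for named peaks that held one in the promoter window. The first 3 are those with the highest signal value, and the last 2 genes were among those with the most motifs.

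*Fam50b* AP-1: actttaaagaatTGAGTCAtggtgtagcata
*Erlec1* AP-1: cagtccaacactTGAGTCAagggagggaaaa
*Cdt1* AP-1: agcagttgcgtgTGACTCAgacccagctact
*Marchf4* AP-1: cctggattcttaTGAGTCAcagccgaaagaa
*Coq8b* AP-1: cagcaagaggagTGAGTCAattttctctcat
*Coq8b* AP-1, next: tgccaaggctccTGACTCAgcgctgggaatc

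The stretch of *Fam50b* was chr13:34734025-34734055 (motif at −810 bp), that of *Erlec1* chr11:30954922-30954952 (−806 bp), that of *Cdt1* chr8:122567541-122567571 (−459 bp) and that of *Marchf4*, a membrane-bound ubiquitin ligase gene, chr1:72538014-72538044 (−870 bp). The pair at *Coq8b*, a gene of coenzyme Q synthesis, lay at chr7:27232014-27232044 (−984 bp) and chr7:27232044-27232074 (−954 bp). Of the 32851 RefSeq promoter sequences of 300 bp (250 bp before the start and 50 bp after it), 194 lay wholly inside a promoter peak, and 17 of these (8.76%) held an AP-1 motif, beside 5.20% of all RefSeq promoters. Among named genes, that of *Gm829* held 2 (chr4:45683339-45683638), centred at −137 and −114 bp, and is shown whole.

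*Gm829* promoter: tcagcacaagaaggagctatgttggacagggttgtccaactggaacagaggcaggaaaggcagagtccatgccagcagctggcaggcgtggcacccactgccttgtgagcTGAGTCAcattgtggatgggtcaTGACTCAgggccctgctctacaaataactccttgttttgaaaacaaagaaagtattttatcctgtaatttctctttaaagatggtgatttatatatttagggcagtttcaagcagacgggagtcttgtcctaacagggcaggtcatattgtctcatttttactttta

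Other promoter motifs were counted in the same 194 sequences, on both strands. The cyclic AMP response element TGACGTCA was in 3.61% (1.79% of all RefSeq promoters), the GC box (GGGCGG or CCGCCC) in 48.5% (35.7%), the CCAAT box (CCAAT or ATTGG) in 45.4% (37.4%), the E-box CACGTG in 4.64% (7.15%) and the TATA box (TATAAA or TTTATA) in 13.9% (13.6%). GATC itself was in 10.8% (48.0%), but these sequences were chosen as wholly inside a peak, and the inside of a single-fragment peak holds no GATC. These shares are a description and were not tested.

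The window reaches 1000 bp upstream of the start and 100 bp downstream, so the rule itself places most midpoints upstream. The midpoint was upstream in 324 of 350 peaks (92.6%), with a median of −527.5 bp. It was within 100 bp of the start in 58 (16.6%). These shares were not compared with those that the window alone would give. Since the peaks are long, 224 (64.0%) still contained a transcript start. In the plot of midpoints about starts, with 1 start for each of the 26180 genes, midpoints were most frequent 1000 to 1500 bp upstream, at 7.72 per 1000 genes and 500 bp, just outside the window. The figure fell to 6.30 between 500 and 1000 bp upstream, 4.89 in the last 500 bp and 4.20 in the 500 bp after the start. Beyond 5 kb the mean was 4.48, so the stretch around the start itself did not stand above the level farther away.

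**Figure D1:**
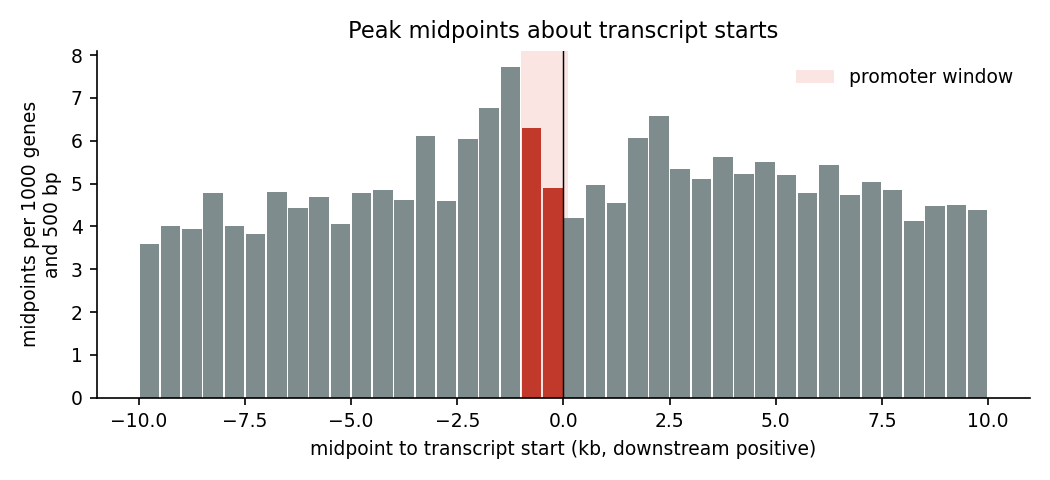
Peak midpoints per 1000 genes and 500 bp (y axis) against the distance from the transcript start in kb (x axis), with 1 start for each of 26180 genes, downstream positive. Shading marks the promoter window and red bars its 1000 bp upstream, where the values were 6.30 and 4.89, below the 7.72 of the bar from 1000 to 1500 bp upstream.

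At the edges of the rule, *S100a2* (midpoint at −1000 bp, signal value 0.777) and *Zfp143* (−999 bp, 0.886) were just inside, and *Dynlrb1* (−1007 bp, 1.01) and *Vmac* (−1009 bp, 1.38) just outside. On the downstream side, the peak at *Halr1* (101 bp, 0.772) was the nearest left out.

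The strength of a peak is its signal value, that of Dam-Zfp266 over Dam as the peak caller gave it, and the column that holds it is not labelled with a scale. At promoter peaks the median was 0.910 (range 0.441 to 1.85). The peaks with the highest values included *Slc25a38*, a mitochondrial glycine carrier needed for haem synthesis (1.85), the ribosomal protein pseudogene *Rpl14-ps1* (1.83), *Cdkn1a*, which encodes the cell cycle inhibitor p21 (1.79), *Ccdc152* (1.77) and *Fam50b* (1.73). These 5 stood apart from the next peak, at *Proca1* (1.56). Their q-values lay between 7.5e-05 and 0.00121.

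The *Cdkn1a* peak (chr17:29089185-29091843) was 2659 bp long and a single DpnII fragment that covered the start. It was 1 of 5 peaks of the list in a row with gaps under 5 kb. It held 1 B1 SINE with 93.4% identity, centred at −1425 bp and so outside the promoter window, and no AP-1 motif. The *Slc25a38* peak (chr9:120108977-120110310) held 3 B1 SINEs, centred at −975, −606 and −348 bp, and an AP-1 motif at −1250 bp.

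The next peaks by signal value included a pair of zinc finger genes, *Zfp280b* (1.56, with 3 B1 SINEs) and *Zfp110* (1.49), the gene of the endoplasmic reticulum lectin *Erlec1* (1.46), *Tmem41a* (1.44) and *Rpl24*, which encodes a protein of the large ribosomal subunit (1.40). *Gigyf2*, a translational repressor, followed at 1.40 and the non-coding gene *Gm40178* at 1.39. *Pemt*, which makes phosphatidylcholine from phosphatidylethanolamine, had 1.38, the olfactory receptor gene *Olfr536* 1.38, *Mad2l1*, a spindle checkpoint gene, 1.37 and *Ppp6r2*, a subunit of protein phosphatase 6, 1.37. The replication licensing factor gene *Cdt1* also had 1.37, *Olfr295* 1.36 and the CCHC zinc finger gene *Zcchc3* 1.36. Of these 20 peaks, 8 held a B1 SINE, 7 an AP-1 motif and 2 both, and 19 were a single fragment.

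**Figure D2:**
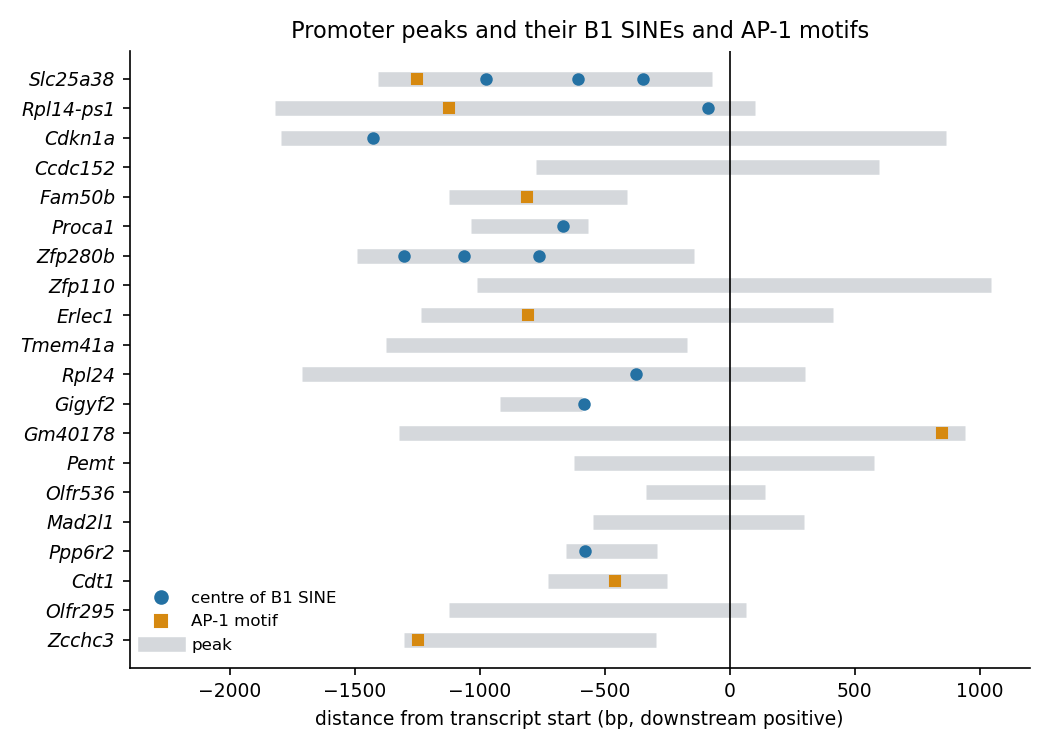
Extent of the 20 promoter peaks with the highest signal value (grey bars, 1 row per gene) against the distance from the transcript start in bp, downstream positive, with the centres of B1 SINEs as circles and AP-1 motifs as squares. 11 of the 20 bars cross a start, and *Slc25a38* and *Zfp280b* carry 3 B1 SINEs each.

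**Figure D3:**
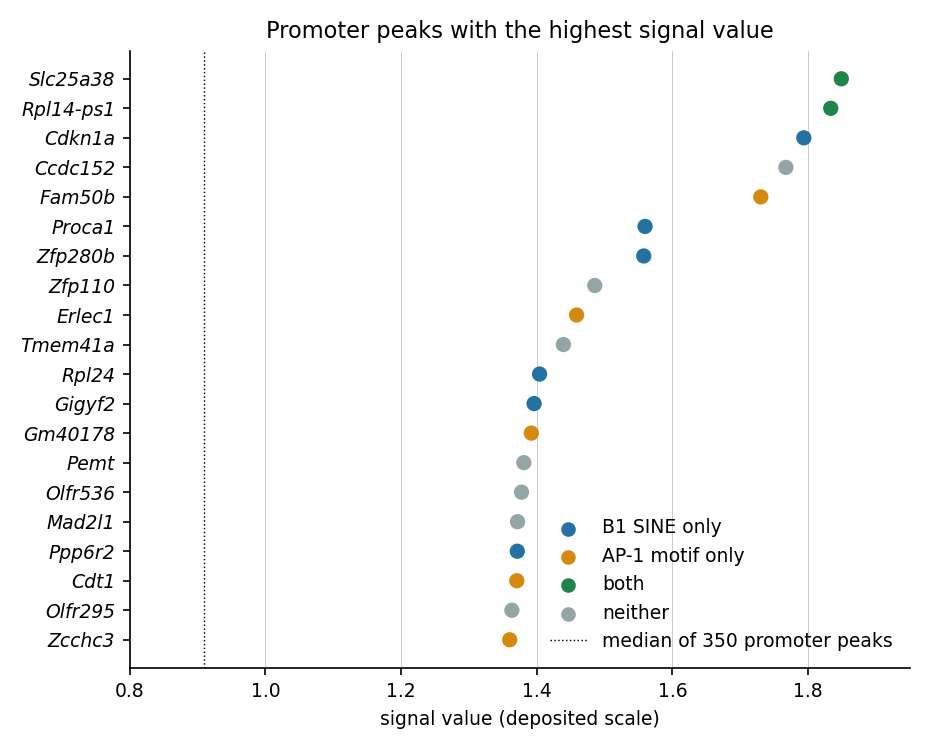
Signal value on the deposited scale (x axis, 1 pooled value per peak, no error) of the same 20 peaks, coloured by whether the peak held a B1 SINE, an AP-1 motif, both or neither. The dotted line is the median of all 350 promoter peaks, 0.910, and the 5 highest lie between 1.73 and 1.85.

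The study's methods give 0.05 for the FDR and 1 for the log2 fold change as example thresholds. With these limits set on the q-value and, since its column is unlabelled, as a stand-in on the signal value, 95 of the 350 promoter peaks passed (27.1%), beside 26.4% of all peaks. The values were highest inside the gene *Zfp266*, whose coding sequence the plasmid carries: its 5 peaks had 5.24 to 8.66, and none was at its promoter. *Pgk1*, whose promoter both plasmids carry, had no peak. The median signal value was 0.910 at promoters and 0.897 elsewhere. At equal length the difference of promoter peaks from the others was −0.0317 (95% interval −0.0605 to −0.00283, linear regression with log2 length, n = 15119 peaks, adjusted p = 0.0314). Against intergenic peaks it was −0.0422 (n = 7896, adjusted p = 0.00467 over 16 fits) and against peaks in first introns −0.00204 (−0.0274 to 0.0233, n = 4208, adjusted p = 0.933). The call was lost with a window of 500 bp upstream (−0.0455, n = 15119, adjusted p = 0.0674), with NM transcripts only (−0.0300, n = 15119, adjusted p = 0.0594) and with the thresholds of 0.05 and 1 (−0.0204, n = 3986, adjusted p = 0.622). The sign of the medians and that of the fit differ, and without the length term the difference was 0.0130 (n = 15119, adjusted p = 0.402).

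Promoter peaks were short. Their median length was 1278 bp (range 227 to 6533) beside 1787 bp for peaks elsewhere, a ratio of geometric means of 0.755 (95% interval 0.709 to 0.804, linear regression of log2 length, n = 15119, Benjamini-Hochberg over 4 fits, adjusted p = 7.06e-18). Peaks under 500 bp made up 8.29% of promoter peaks (29 peaks) and 2.07% of the others, and 220 promoter peaks (62.9%) were a single fragment, beside 55.5%. Against peaks with the midpoint in a first intron the ratio was 0.756, in an exon 0.799, in a later intron 0.745 and between genes 0.758 (largest adjusted p over 16 fits, 1.62e-05, for exons, n = 666). The rule selects on the midpoint. When peaks with any base in the window were taken, the difference in log2 length was −0.0174 (same regression, n = 15119, adjusted p = 0.558). Longer peaks meet that second rule more easily, and the part of this in the change was not tested.

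**Figure D4:**
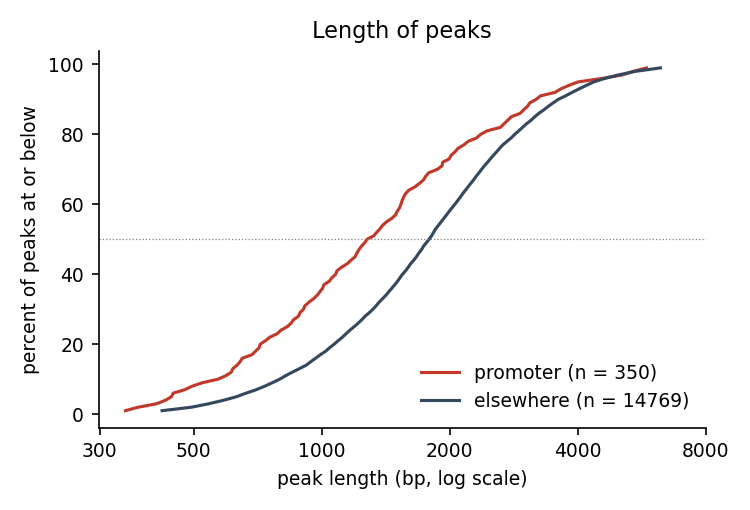
Percent of peaks at or below a given length (y axis) against peak length in bp on a log scale (x axis), for the 350 promoter peaks (red) and the 14769 others (dark). The curves cross the dotted line at 50% at 1278 and 1787 bp.

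Among the shortest promoter peaks were those of *Zfp64* with 265 bp, *Atp9a* with 274 bp, *Gigyf2* with 329 bp and the drug transporter gene *Abcg2* with 362 bp. Among the longest were *Dcaf13* with 6533 bp, the miR-155 host gene *Mir155hg* with 6380 bp, *Birc2*, an inhibitor of apoptosis, with 6347 bp and *Fxyd6* with 5720 bp. These 4 long peaks contained a start, and the 4 short ones did not. Signal values of the 4 short peaks were 0.910 to 1.40 and of the 4 long ones 0.504 to 1.03.

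B1 SINEs, taken as matches to the consensus over at least 80 bp at 70% identity, were in 125 promoter peaks (35.7%, Wilson 95% interval 30.9 to 40.9%) and in 33.2% of peaks elsewhere. A match counted when any base of it lay in the peak or window. At *Atp9a* only 19 bp did, and the copy was centred outside the peak. At equal length the odds were 1.32 times those elsewhere (95% interval 1.05 to 1.65, logistic regression with log2 length, n = 15119, adjusted p = 0.0314). The odds were higher than those of later introns (odds ratio 1.61, n = 3399, adjusted p = 0.00036) and intergenic peaks (1.43, n = 7896, adjusted p = 0.00506). Against first introns, where 40.2% of peaks held a B1 SINE, the odds ratio was 0.966 (0.765 to 1.22, n = 4208, adjusted p = 0.885), and against exons 1.34 (0.964 to 1.87, n = 666, adjusted p = 0.107). The call was lost with stricter B1 SINEs of at least 100 bp at 85% identity, which were in 22.3% of promoter peaks and 23.6% of the others (odds ratio 1.09, n = 15119, adjusted p = 0.518). It was also lost with GC content in the fit (1.21, n = 15119, adjusted p = 0.0988), without the length term (1.12, adjusted p = 0.321), with the thresholds of 0.05 and 1 (1.12, n = 3986, adjusted p = 0.622) and with GENCODE transcripts (1.18, adjusted p = 0.0935). With a window of 500 bp upstream the odds ratio turned to 0.849 (0.596 to 1.21, n = 15119, adjusted p = 0.477).

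The promoter peaks were also split by the place of the midpoint. Where it was 500 to 1000 bp upstream, 81 of 189 peaks held a B1 SINE (42.9%, 36.0 to 49.99%), while 28 of 103 did between 100 and 500 bp upstream (27.2%, 19.5 to 36.5%) and 16 of 58 within 100 bp of the start (27.6%, 17.8 to 40.2%). These shares are a description and were not tested against each other. Over all 26180 genes, with or without a peak, 11.8% had a B1 SINE in the outer 500 bp of the upstream window and 5.10% in the inner 500 bp. Of the 181 B1 SINEs that met a promoter peak, 159 were centred upstream, 129 of them more than 500 bp upstream, and 3 within 200 bp of the start. The median was −757 bp, and some centres lay outside the peak. The consensus has no GATC, but 44 of the 181 copies (24.3%) did.

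The promoter peaks with the largest share of their bases in B1 SINEs were those of *Gzmm*, which encodes a granzyme of killer lymphocytes (43.1%), *Fancc* (43.0%), the snoRNA host gene *Snhg3* (41.2%), *Gsr*, the glutathione reductase gene (38.1%), and *Vat1* (33.9%). Their best copies in the promoter window were between 87.0% and 94.2% identical to the consensus, and their signal values were 1.01 to 1.35.

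AP-1 motifs were less frequent. They were in 115 promoter peaks (32.9%, Wilson 95% interval 28.1 to 37.9%) and in 44.5% of peaks elsewhere, and at equal length the odds were 0.772 times those elsewhere (0.609 to 0.978, n = 15119, adjusted p = 0.0314). The odds ratio was 0.689 against intergenic peaks (n = 7896, adjusted p = 0.00467) and 0.717 against later introns (n = 3399, adjusted p = 0.0135). It was 0.992 against first introns (0.775 to 1.27, n = 4208, adjusted p = 0.949) and 1.12 against exons (0.802 to 1.56, n = 666, adjusted p = 0.623). The call was lost with a window of 500 bp upstream (0.943, n = 15119, adjusted p = 0.733), with GENCODE transcripts (0.901, adjusted p = 0.252) and with the thresholds of 0.05 and 1 (0.787, n = 3986, adjusted p = 0.613).

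By distance, 41.4% of peaks within 100 bp of the start held an AP-1 motif (24 of 58, 29.6 to 54.2%), 35.9% between 100 and 500 bp upstream (37 of 103) and 28.6% at 500 to 1000 bp upstream (54 of 189, 22.6 to 35.4%). Median peak lengths fell in the same order, at 1553, 1287 and 1207 bp, and longer peaks can hold more motifs. The intervals overlap, no test was run, and the part of length was not tested. Of the 156 motifs, 29 were within 200 bp of a start, 40 lay downstream of it and 3 lay in a B1 SINE. *Coq8b* had 5, all upstream, and the pair nearest the start is shown above. *Gm41230* had 4, and *Tm4sf19*, *Marchf4* and *Cds2* had 3 each, as did other peaks of lower signal value.

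**Figure D5:**
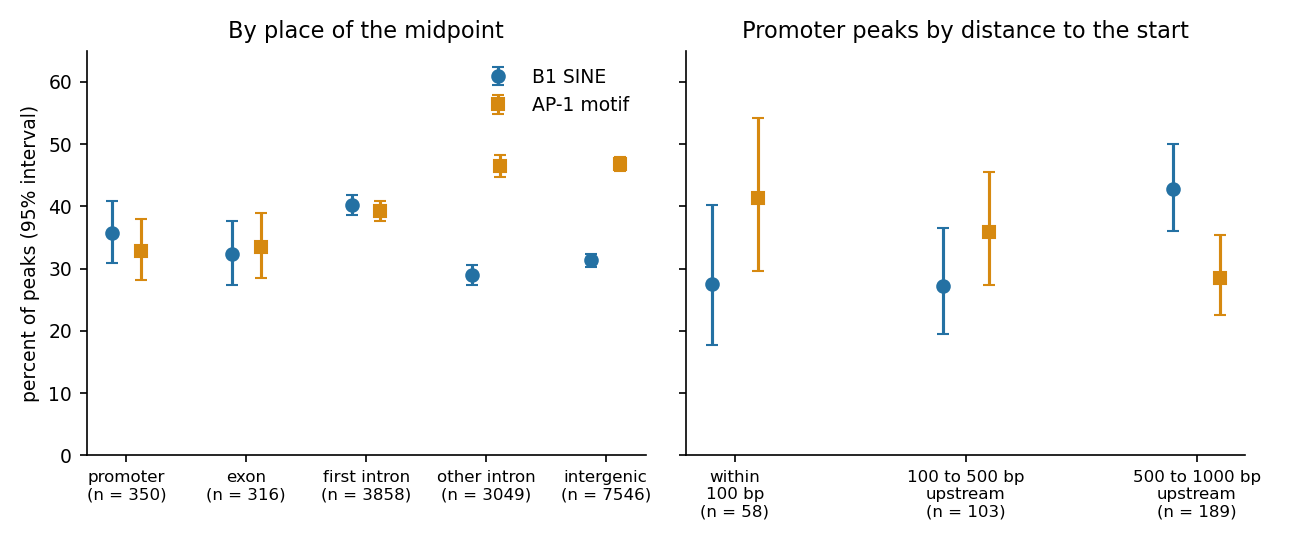
Percent of peaks that hold a B1 SINE (circles) or an AP-1 motif (squares), with Wilson 95% intervals. On the left peaks are split by the place of the midpoint, with 35.7% and 32.9% at promoters, and on the right the promoter peaks are split by distance to the start, where B1 SINEs were at 42.9% at 500 to 1000 bp upstream and 27.2% between 100 and 500 bp.

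Length and content were read together in 4 classes of equal size by length over all peaks. The shortest class, 193 to 1178 bp, held 44.3% of promoter peaks (155), and there B1 SINEs were in 32.9% of them, beside 24.7% of the others, and AP-1 motifs in 24.5%, beside 28.5%. In the longest class, with 66 promoter peaks, the shares were 56.1% and 43.3% for B1 SINEs and 51.5% and 65.4% for AP-1 motifs. In both middle classes B1 SINEs were not above the level elsewhere (25.9% and 29.6%, then 34.1% and 34.8%).

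Both features were in 35 of 350 promoter peaks (elsewhere 14.7%), a B1 SINE alone in 90, an AP-1 motif alone in 80 and neither in 145 (41.4%, beside 37.0%). Median lengths followed the content, from 1113 bp for peaks with neither to 2678 bp for peaks with both, and the median signal value was 0.938 for peaks with neither and 0.859 for peaks with both. In sequence, promoter peaks had more GC (median 48.5%, elsewhere 43.4%) and a higher ratio of observed to expected CpG (0.347 and 0.185), and fewer soft-masked repeat bases (18.8% and 24.6%). Another peak lay within 5 kb of 100 promoter peaks (28.6%), beside 38.5% elsewhere.

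Promoter windows can also be compared with each other, 1 per gene. For a gene with a midpoint, a window that held it was taken, and for the others that of the farthest upstream start. The windows were thus not chosen alike, and the part of this in the shares was not tested. Of the 358 windows with a peak midpoint, 97 held a B1 SINE (27.1%, 22.8 to 31.9%), beside 14.0% of the 25822 without, and 86 an AP-1 motif (24.0%, 19.9 to 28.7%), beside 15.8%. GATC content moved with this: 68 windows with a midpoint had no GATC (18.99%), beside 8.11% of those without. A midpoint was found in 3.15% of windows without GATC, in 1.46% of those with 1 to 3 and in 0.584% of those with 4 or more. The part of GATC spacing in the other shares was not tested. CpG content showed no steady order, with a midpoint in 1.10% of windows with a ratio under 0.4, 1.90% from 0.4 to 0.6 and 1.46% from 0.6.

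Of the 358 genes, 301 were protein-coding (1.43% of 21000) and 57 non-coding (1.10% of 5180). Peaks with only non-coding transcripts at the window numbered 52, with AP-1 motifs in 25 (48.1%, 35.1 to 61.3%), while of the 298 with a coding transcript 90 held one (30.2%, 25.3 to 35.6%). Median lengths were 1648.5 bp and 1253.5 bp. *Ablim1*, which encodes an actin-binding LIM protein, and *Dennd1b*, a regulator of RAB35, had 2 promoter peaks each. In 10 peaks the midpoint was in the windows of 2 genes, among them the shared promoter of *Mcm4*, a subunit of the replicative helicase, and *Prkdc*, the DNA-dependent protein kinase gene (signal value 0.523, 2145 bp, midpoint 17 bp from the nearer start), a pair chosen after its values were seen.

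Gene groups were read from 29 lists, which together had 96 members with a promoter peak, and 20 lists had at least 1. The background for each count is the 1.37% of all genes, and no set test was run. Most lists were drawn by the start of the gene symbol and the others are short lists of symbols, so none is a whole family. Zinc finger genes named Zfp had 11 of 403 members (2.73%): *Zfp280b*, *Zfp110*, *Zfp64*, *Zfp169*, *Zfp78*, *Zfp143*, *Zfp365*, *Zfp526*, *Zfp7*, *Zfp33b* and *Zfp472*, in order of signal value from 1.56 to 0.629. B1 SINEs were in 2 of these 11 peaks, *Zfp280b* and *Zfp7*, with 3 each, and an AP-1 motif in that of *Zfp526*. Olfactory and vomeronasal receptor genes had 2 of 1490 (0.134%) and microRNA genes 5 of 1190 (0.42%): *Mir155hg*, a host gene, *Mir3077*, *Mir6769b*, *Mir7228* and *Mir7663*, 4 of them with a B1 SINE. Genes named only as predicted or RIKEN clones had 49 of 4439 (1.10%), with AP-1 motifs in 26 peaks and B1 SINEs in 15.

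Among genes of the study's own themes, *Cdkn1a* was the only 1 of 16 reprogramming roadblock genes named in the text with a promoter peak, and also of 22 cell cycle inhibitor and RB genes. The 16 are only a part of the roadblock genes that the study identified. None of 26 pluripotency genes, 32 fibroblast and mesenchymal transcription factor genes, 42 TGF-beta, BMP and SMAD genes, 43 Hox genes or 26 KLF and MYC family genes had a promoter peak in this list. With 1.37% of all genes having one, a list this short is likely to hold none, so no depletion is read from these counts. The AP-1 family had 1 of 21, *Jdp2*, a repressor that dimerises with JUN: its peak (chr12:85598211-85598853, signal value 1.13) held neither a B1 SINE nor an AP-1 motif. Of 49 actin cytoskeleton and focal adhesion genes, *Tpm2*, a tropomyosin gene (1.13), and *Cald1*, the caldesmon gene (1.08, with an AP-1 motif at −194 bp), had one. None of 44 collagen genes, 124 integrin, cadherin and protocadherin genes or 80 matrix protease genes did, beside 1.37% of all genes, and this was not tested.

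The list of imprinted genes had 3 of 54 (5.56%): *Fam50b* (1.73), *Zrsr1* (1.08) and *Airn*, the antisense RNA that silences *Igf2r* on the paternal allele (0.816). *Fam50b* and *Airn* held an AP-1 motif and *Zrsr1* 2 B1 SINEs. With the thresholds of 0.05 and 1 *Fam50b* alone of these stayed, as the q-value of *Zrsr1* was 0.0635 and that of *Airn* 0.0729. Ribosomal protein genes named Rpl, Rps, Mrpl or Mrps with a number had 2 of 183, *Rpl14-ps1* and *Rpl24*. The list leaves out *Rplp2*, which encodes a protein of the ribosomal stalk and had a peak of 1.35. Solute carriers named Slc with a number had 3 of 380, *Slc25a38*, the neutral amino acid transporter gene *Slc1a4* (1.14) and the zinc transporter gene *Slc30a6* (0.641). The organic anion transporter genes *Slco2a1* (1.05) and *Slco1a5* (0.831) are not on it and also had a promoter peak.

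G protein-coupled receptors named Gpr or Adgr had 3 of 103, *Adgrb2* (1.36), *Gpr142* (0.967) and *Gpr50* (0.750), none with either feature. Ubiquitin system genes named Usp, Ube2, Trim, Fbxo, Fbxl, Fbxw or Rnf had 4 of 330, *Usp17la* (1.22), *Rnf122* (0.835), *Trim13* (0.823) and *Ube2l6* (0.801), and 3 of these peaks held a B1 SINE. The ion channel list had 2 of 211, *Clcn3* (0.794) and *Trpv2* (0.638), each with both features. Cytochrome P450 genes had 2 of 104, *Cyp4f13* (0.778) and the pseudogene *Cyp4f41-ps* (0.629). A further 4 lists had 1 member each: the nucleosome remodeller *Chd1* on a list of 115 chromatin enzyme genes (0.592), *H1f6*, a testis linker histone, on one of 14 histone genes (0.877), *Krtap1-5* on one of 110 keratin genes (0.787) and *Tnfrsf23* on one of 225 cytokine and receptor genes (0.698). The chromatin list does not hold the remodeller gene *Ino80* (1.35) or the histone methyltransferase gene *Nsd1* (1.18), which also had a promoter peak. *Rplp2*, *Slco2a1*, *Slco1a5*, *Ino80* and *Nsd1* were added after their values were seen. No small nucleolar RNA gene of 124 had a promoter peak, beside 1.37% of all genes.

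Promoter peaks were found on every chromosome but Y, from 1.06% of the peaks of chromosome 10 to 4.75% of those of chromosome 7, where 35 lay.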

How the data were processed

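The data were 1 list of DamID-seq peaks of MEFs from 5 Dam and 5 Dam-Zfp266 samples. Per the labels and methods, the authors checked reads with FastQC, removed adapters with Cutadapt, aligned them to GRCm38 with BWA, and discarded mitochondrial and blacklisted reads. Rsubread gave the reads of each DpnII fragment, and Daim the peaks. Versions are not given in the sources used here. The authors' list gives each peak a score proportional to the −log10 q-value up to a limit, a signal value in a column not labelled with a scale, and a −log10 q-value, and all peaks had an FDR of at most 0.1. The signal value and q-value were used as deposited, and single samples have no values here. All 15119 peaks began and ended within a GATC.

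Curated RefSeq transcripts (45756) gave starts, and RefSeq gave promoter sequences (282 of 358 genes matched). B1 SINEs were found with blastn 2.17.0 (e-value limit 10) and a consensus assembled from 16-base words, since no repeat annotation was used here, giving 285042 in the genome (148378 under the stricter limits). Shares have Wilson 95% intervals, which cover counting error only. Promoter peaks were compared with the other peaks by logistic or linear regression (statsmodels 0.14.6), with likelihood ratio tests for the former and Benjamini-Hochberg adjustment. Peaks are not replicates. Python 3.11.15, numpy 2.4.6, pandas 2.3.3, scipy 1.17.1 and matplotlib 3.10.9 were used, and the steps were tested on simulated data.

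The members and lists were chosen with earlier results of these data known. Named genes are the top 20 by signal value, those of the 5 longest peaks, the 5 shortest, the 5 richest in B1 bases and the 5 with most AP-1 motifs (ties by signal value), list members, and *Zfp266* and *Pgk1*. Some of these genes and 1 list are not reported here. Sequences follow the same order, without chromosome 18. Alternatives covered the window, the assignment, the annotation, the peak thresholds, the covariates and the definitions of B1 SINE and motif. Read coverage and the study's other assays were not analysed here. The labels name mOrange and the methods GFP as the sorted marker.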

Additional observations from a re-analysis of the deposited data

How the results depend on the processing

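The list pools all samples, so no sample could be left out. No paired analysis was possible because the list has no value for any sample. The number of promoter peaks followed the definition: with windows of 500 bp and 2000 bp upstream, any overlapping base, NM transcripts and GENCODE transcripts they were 1.07, 5.34, 5.82, 1.97 and 3.85% of peaks. Genes numbered 170, 836, 918 and 610 with the 500 bp window, the 2000 bp window, any overlapping base and GENCODE, and 95 with the stricter peaks (FDR under 0.05, signal value over 1). List members were 248 with the 2000 bp window and 29 with the stricter peaks.

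The B1 odds ratio reversed to 0.849 with the 500 bp window. It kept its direction and missed the threshold with GENCODE (1.18), stricter peaks (1.12), GC content (1.21), no length term (1.12), 500 bp about each midpoint (1.32) and stricter B1 SINEs (1.09), and passed under the other 5 alternatives. The AP-1 odds ratio missed it with the 500 bp window (0.943), GENCODE (0.901) and stricter peaks (0.787), and passed under 9. The difference in log2 length missed it with any overlapping base (−0.0174), and passed under 8. Among these 8 was the fit of the number of DpnII fragments (−0.115), which is a different measure from length. The signal difference reversed to 0.0130 without the length term, missed the threshold with the 500 bp window (−0.0455), NM transcripts (−0.0300) and stricter peaks (−0.0204), and passed under 5. The stricter thresholds leave 95 promoter peaks. The cause of the other changes was not tested.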

Other observations

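Some of the genes outside the lists share a function. They were picked after the values were seen and are given as values only. Genes of the same functions without a promoter peak were not counted, so no share is given. Among aminoacyl-tRNA synthetase genes, *Lars* (signal value 1.29), *Dars* (1.26), *Eprs* (0.981) and *Tars* (0.922) had a promoter peak, those of *Eprs* and *Tars* with the midpoint at 73 and −23 bp and 1 AP-1 motif each. Among genes of the oxidative stress response, *Gsr* (1.35) held a B1 SINE and *Sqstm1*, the autophagy receptor gene p62 (1.08), an AP-1 motif. The peak of *Hmox1*, the haem oxygenase gene (1.28), met only 51 bp of a B1 SINE. That copy had 80.3% identity and was centred at −1075 bp, outside the peak. Genes of DNA replication and mitosis included *Orc2* (0.780), *Rfc5* (0.816), *Pold3* (0.941) and *Cdc23* (0.926), besides *Cdt1*, *Mcm4* and *Mad2l1*.

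The promoter peak with the most B1 SINEs was that of *Smim40*, with 6 in 2976 bp and a signal value of 1.08. *Id2*, a BMP target gene (0.610), had a promoter peak, although the TGF-beta, BMP and SMAD list had none.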
